A study of Mus musculus with 10 samples.

Results

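The activity-regulated immediate-early genes are the genes that neurons switch on within minutes of synaptic input, together with the slower effector genes that follow. 38 such genes were taken as a named list, 26 of them transcription factors and other nuclear regulators, 4 brakes on signalling and 8 effectors. All 38 were found among the 30935 genes of the count table, and all 38 passed the filter on low counts that left 15488 tested genes. Total RNA of mouse cerebral cortex, taken at postnatal day 8, was sequenced. 5 knockout libraries (replicates 1, 3, 5, 6 and 8) carried the HAR.505 deletion on both alleles (Rbfox1 ΔHAR.505/ΔHAR.505), HAR.505 being an accelerated region in the Rbfox1 locus, and 5 wild-type libraries (replicates 2, 4, 5, 6 and 7) came from Rbfox1 +/+ mice. The sources used here do not give strain, sex, litter or the number of founder lines, and the labels name no stimulus, so the values are levels in dissected tissue with no labelled stimulation.

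In a neuron, calcium entry and growth factor signals activate kinases that act on transcription factors already present, chiefly CREB and the serum response factor SRF. These switch on a rapid set of genes without new protein synthesis, among them Fos, Egr1 and Npas4, whose products are themselves transcription factors. A slower set follows, including genes for secreted peptides, growth factors and synaptic proteins such as Bdnf, Nptx2 and Scg2. In the maturing cortex these genes are known as readouts of sensory and spontaneous activity and as regulators of synapse growth.

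Library totals ran from 16479594 to 22391943 counts, and levels are given as CPM, the count of a gene scaled to a common library size with TMM factors. The cortical excitatory neuron markers, led by the vesicular glutamate transporter gene Slc17a7, summed to 1988 to 2095 CPM in knockout and 1891 to 2018 CPM in wild-type libraries, so markers of the labelled tissue were present in every library. Markers of neighbouring tissue differed with genotype. The 17 tested choroid plexus and ependyma markers summed to 250.3, 26.2, 35.2, 35.8 and 116.5 CPM in the knockout libraries in replicate order, against 275 to 335 CPM in wild type. Ttr made up most of the wild-type sums, at 213 to 278 CPM, and stood at 200.2, 0, 0.49, 5.07 and 80.55 CPM in knockout. Of the 17, 2 fell (Clic6 and Tmem72, not Ttr) and 0 rose, against 0.194% and 0.187% of all tested genes. At an unadjusted p under 0.05 in the edgeR test given below, 10 were lower and 0 higher, against 4.52% and 4.19% of all tested genes. Ttr and Tmem212 were at 0 counts in knockout replicate 3, and Otx2 and the striatal marker Isl1 in knockout replicates 3 and 6. The 17 striatal markers summed to 389 to 528 CPM in knockout and 471 to 631 CPM in wild-type libraries, and 2 of 17 fell and 0 rose. At an unadjusted edgeR p under 0.05, 12 were lower and 2 higher, Pdyn and Gpr6 (log2 fold changes 0.31 and 0.34). In bulk tissue, fewer cells of a type and less RNA per cell cannot be told apart.

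Of the 38 immediate-early genes, 1 rose in the knockout and 0 fell, by edgeR's quasi-likelihood test with Benjamini-Hochberg adjustment over all tested genes. The gene that rose was Nr4a3, an orphan nuclear receptor. Over all tested genes 0.381% were called, 0.187% higher and 0.194% lower, so the 1 call concerns that gene and not the group. 6 of the 38 (15.8%) had an unadjusted edgeR p under 0.05, 2 of them higher (Nr4a3 and Ccn1) and 4 lower (Scg2, Nptx2, Fosb and Gadd45g), where 8.71% of all tested genes did (4.19% higher and 4.52% lower). The log2 fold changes were positive for 20 members and negative for 18, with a median of 0.0067 against -0.0021 over all tested genes. The 95% interval of the fold change lay within 1.5-fold in either direction for 29 of the 38 genes and within 2-fold for 36. The exceptions to the wider bound were Fosb and Atf3, whose lowest libraries held 7 and 5 counts.

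The Nr4a receptors are nuclear receptors that act without a known hormone and are induced through cAMP and calcium signals. Nr4a3 stood at 86.3, 71.9, 91.2, 91.4 and 90.1 CPM in knockout replicates 1, 3, 5, 6 and 8, against 69.1, 69.4, 63.9, 74.9 and 71.2 CPM in wild-type replicates 2, 4, 5, 6 and 7. 4 knockout libraries lay above every wild-type library, and knockout replicate 3 lay within the wild-type range, so the genotypes overlapped. The means were 86.2 ± 8.25 CPM in knockout and 69.7 ± 3.98 CPM in wild type (SD, n = 5 each). The log2 fold change was 0.30 (SE 0.064, edgeR adjusted p = 0.024), or 1.24-fold with a 95% interval from 1.13 to 1.35. With any 1 of the 10 libraries removed the log2 fold change stayed between 0.28 and 0.36, and the call held in 5 of the 10 fits. The edgeR adjusted p was 0.0543 without knockout replicate 5, 0.0676 without 6, and 0.0999, 0.0751 and 0.0935 without wild-type replicate 2, 4 or 5. With the choroid and ependyma markers as a covariate the log2 fold change was 0.42 and with the striatal markers 0.29, and neither passed (edgeR adjusted p = 0.298 and 0.9999). The first covariate, a mean log2 CPM, ran from -0.28 to 1.7 in knockout and 1.9 to 2.04 in wild type. The second ran from 3.03 to 3.65 and from 3.59 to 4.34. Both thus separated the genotypes fully or nearly so, and 0 and 1 of all tested genes were called beside them. Here and for the genes below, these fits cannot well part genotype from the markers.

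Nr4a1 and Nr4a2, the other receptors of the family, did not pass the test. Nr4a1 stood at 24.6, 25.1, 23.7, 27.9 and 23.9 CPM in the knockout libraries, against 22.4, 20.4, 25.4, 22.8 and 21.5 CPM in wild type, with replicates ordered as for Nr4a3. The knockout libraries lay above 4 of the wild-type libraries, and wild-type replicate 5 within the knockout range, and the log2 fold change was 0.16 (SE 0.086, edgeR adjusted p = 0.649). Nr4a2 stood at 90.2, 109, 90.5, 85.9 and 78.5 CPM in knockout, against 83.5, 90.4, 87.4, 98.2 and 102 CPM in wild type, with a log2 fold change of -0.03 (SE 0.073, edgeR adjusted p = 0.967). Its knockout libraries spanned the wild-type range on both sides.

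Whether Nr4a3 differed from its relatives was tested on ratios of CPM within each library, which no library scaling affects. The ratio of Nr4a3 to Nr4a2 was 0.957, 0.662, 1.01, 1.06 and 1.15 in the knockout libraries, against 0.828, 0.768, 0.732, 0.763 and 0.696 in wild type. 4 knockout libraries lay above all wild-type libraries and knockout replicate 3 below all of them. On the log2 scale the ratio differed by 0.33, which did not pass a two-sided exact permutation of the genotype labels (p = 0.0556, 0.111 adjusted over 2 ratios, where the smallest possible p is 0.00794). Without knockout replicate 3, the library that ran against the difference, it was 0.46 (exact permutation p = 0.00794). With any other library left out the exact permutation p lay between 0.0635 and 0.119, so that value rests on the removal of 1 library. The ratio of Nr4a3 to Nr4a1 was 3.5, 2.85, 3.84, 3.26 and 3.76 in the knockout libraries, against 3.08, 3.4, 2.51, 3.27 and 3.3 in wild type, and the log2 difference of 0.15 did not pass either (exact permutation p = 0.246, 0.246 adjusted). A rise of Nr4a3 beyond that of Nr4a1 or Nr4a2 was therefore not shown at this number of libraries. These ratios compare libraries, and gene length enters both sides alike.

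**Figure D1:**
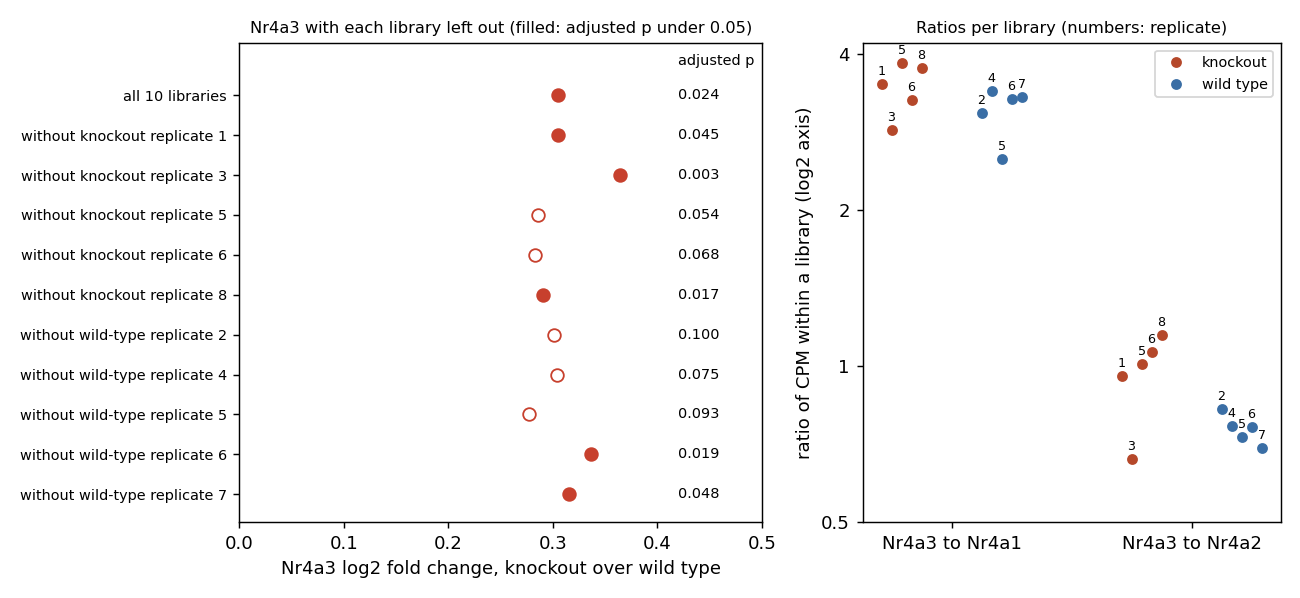
Left, Nr4a3 log2 fold change (x axis) with all 10 libraries and with each left out, with its edgeR adjusted p; filled points passed 0.05. Right, the CPM ratio of Nr4a3 to Nr4a1 and to Nr4a2 in each library on a log2 axis; knockout replicate 3, at 2.85 and 0.662, is the lowest knockout library in both.

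The promoters of the 3 Nr4a genes are shown because these genes share a feature in them that the list did not use. The core of the cAMP response element, TGACG on either strand, occurred 4 times in each. Each sequence runs from 250 bases before to 50 bases after the RefSeq start in GRCm38.p6, with the matches in capitals. They lie at chr4:48045055-48045354 (plus strand), chr15:101266596-101266895 (plus strand) and chr2:57123954-57124253 (minus strand).
Nr4a3: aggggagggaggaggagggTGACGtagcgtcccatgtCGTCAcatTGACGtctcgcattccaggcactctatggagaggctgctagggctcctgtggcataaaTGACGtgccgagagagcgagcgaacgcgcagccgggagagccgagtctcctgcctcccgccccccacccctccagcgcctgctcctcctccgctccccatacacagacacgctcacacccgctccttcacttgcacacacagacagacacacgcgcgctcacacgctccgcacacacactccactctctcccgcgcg
Nr4a1: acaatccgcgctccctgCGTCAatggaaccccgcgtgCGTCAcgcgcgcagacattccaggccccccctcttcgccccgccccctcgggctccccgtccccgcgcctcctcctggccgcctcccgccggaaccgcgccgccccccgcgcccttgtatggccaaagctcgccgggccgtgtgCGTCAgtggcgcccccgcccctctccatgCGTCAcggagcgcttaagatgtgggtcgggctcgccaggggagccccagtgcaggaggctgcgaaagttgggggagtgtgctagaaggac
Nr4a2: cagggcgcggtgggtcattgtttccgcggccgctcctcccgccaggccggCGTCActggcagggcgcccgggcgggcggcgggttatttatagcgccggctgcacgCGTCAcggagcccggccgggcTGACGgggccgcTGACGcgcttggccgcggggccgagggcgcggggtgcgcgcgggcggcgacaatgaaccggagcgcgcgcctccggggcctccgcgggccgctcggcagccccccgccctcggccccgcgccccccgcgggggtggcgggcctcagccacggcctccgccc
Of 32851 promoters in the RefSeq table, 20.8% held at least 1 such match and 0.231% held at least 4. 28 of the 38 members had 41 promoters in the table, 24 of these 41 held at least 1 match, and only those of the Nr4a genes held 4. The cut of 4 is the count in the Nr4a promoters themselves, so these shares are a description and not a test. The matches of Nr4a3 began 231, 213, 205 and 147 bases before its start, those of Nr4a1 233, 213, 69 and 40, and those of Nr4a2 200, 144, 123 and 111. Nr4a3 and Nr4a1 shared the match at 213, and their farthest matches lay at 231 and 233. Nr4a1 also had 2 within 100 bases of its start, and Nr4a2 and Nr4a3 had none there.

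The AP-1 factors pair as Fos and Jun proteins on DNA, with Atf3 and the small Maf protein Maff as related partners, and 0 of the 8 passed edgeR's test in either direction (1 at an unadjusted p under 0.05). Fos, the classical marker of recent neuronal firing, was low, at 3.83, 6.46, 3.61, 5.51 and 3.8 CPM in the knockout libraries, against 5.51, 4.99, 5.67, 4.18 and 5.29 CPM in wild type. Knockout replicates 1, 5 and 8 lay below every wild-type library and knockout replicate 3 above all, and the log2 fold change was -0.14 (SE 0.186, edgeR adjusted p = 0.912). Junb stood at 27.1, 23.6, 20.1, 25.9 and 19.7 CPM in knockout, against 23.0, 23.2, 21.9, 20.4 and 19.1 CPM in wild type (log2 fold change 0.11, SE 0.098, edgeR adjusted p = 0.836). 3 of its knockout libraries lay above all wild-type libraries and the other 2 within their range. Fosb had the lowest fold change of the 38, with 0.838, 0.773, 0.428, 1.45 and 1.68 CPM in knockout and 1.21, 2.2, 2.66, 1.08 and 2.29 CPM in wild type. Knockout replicates 1, 3 and 5 lay below all wild-type libraries, and the log2 fold change of -0.85 had an SE of 0.372 (edgeR adjusted p = 0.485). It was -0.43 with the choroid and ependyma markers as a covariate and -0.34 with the striatal markers. The others, Fosl2, Jun, Jund, Atf3 and Maff, had log2 fold changes between -0.25 and 0.14. Jund averaged 223 ± 16.0 CPM in knockout and 225 ± 17.0 CPM in wild type (SD, n = 5 each), and its fold change had a 95% interval from 0.918 to 1.07. The Fos promoter is shown as that of the best-known gene of the group, chr12:85473640-85473939 (plus strand) in GRCm38.p6, and held 2 matches to TGACG, in capitals, 129 and 66 bases before the start.
Fos: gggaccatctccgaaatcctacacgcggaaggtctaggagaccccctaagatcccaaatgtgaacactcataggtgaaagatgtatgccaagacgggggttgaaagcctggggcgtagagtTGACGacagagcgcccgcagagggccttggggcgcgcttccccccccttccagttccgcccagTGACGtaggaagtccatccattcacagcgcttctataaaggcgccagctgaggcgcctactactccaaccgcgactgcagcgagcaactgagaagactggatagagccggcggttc

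The Egr genes encode zinc-finger factors that relay growth factor and synaptic signals, and 0 of 4 passed edgeR's test (0 at an unadjusted p under 0.05). Egr1 stood at 53.5, 55.9, 47.7, 53.3 and 51.8 CPM in the knockout libraries, against 46.5, 51.6, 59.9, 60.9 and 47.1 CPM in wild type. All knockout libraries lay inside the wild-type range, and the log2 fold change was -0.02 (SE 0.074), with a 95% interval of the fold from 0.887 to 1.09. Egr3 stood at 92.9, 92.9, 90.3, 85.6 and 76.1 CPM in knockout, against 76.3, 74.6, 87.8, 84.4 and 79.0 CPM in wild type. 3 knockout libraries lay above all wild-type ones, and the log2 fold change was 0.12 (SE 0.061, edgeR adjusted p = 0.584). Egr2 (2.8 ± 0.777 CPM in knockout and 2.79 ± 1.1 CPM in wild type, SD, n = 5 each) and Egr4 had log2 fold changes of 0.01 and -0.09.

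Of the 11 other nuclear regulators 0 passed edgeR's test, and 1 had an unadjusted p under 0.05. Npas4, a factor induced by calcium entry and known for its selectivity for neuronal activity, stood at 2.81, 5.41, 5.33, 3.18 and 4.31 CPM in knockout, against 5.19, 3.65, 6.2, 3.37 and 4.38 CPM in wild type. The genotypes overlapped, and the log2 fold change was -0.11 (SE 0.211, edgeR adjusted p = 0.950). Gadd45g, a stress and growth arrest gene, stood at 6.83, 6.85, 7.1, 8.75 and 6.66 CPM in knockout, against 8.6, 8.59, 10.1, 6.92 and 10.2 CPM in wild type, with a log2 fold change of -0.29 (SE 0.143, edgeR adjusted p = 0.560). Knockout replicate 6 lay within the wild-type range and wild-type replicate 6 among the other knockout libraries. Srf, the upstream factor named above, averaged 44.8 ± 1.09 CPM in knockout and 42.9 ± 3.4 CPM in wild type (SD, n = 5 each, log2 fold change 0.06). Ier2 (0.29) and the antiproliferative gene Btg2 (0.22) had the highest log2 fold changes here and did not pass. The Krüppel-like factors Klf4 (0.01) and Klf10 (0.11), the clock gene Per1 (0.06), the CREB relative Crem (-0.11), Ier5 (-0.02) and Gadd45b (0.18) make up the rest.

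The brakes end the signal that starts the response: Dusp1, Dusp4 and Dusp6 encode phosphatases that switch off MAP kinases, and Sik1 a kinase that restrains the CREB coactivators. 0 of 4 passed edgeR's test, and 0 had an unadjusted p under 0.05. Their log2 fold changes were 0.08, -0.04, -0.01 and -0.15, and each 95% interval lay within 1.5-fold. Dusp6 averaged 43.9 ± 3.76 CPM in knockout and 44.2 ± 3.38 CPM in wild type (SD, n = 5 each).

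The 8 effectors had fold changes in both directions, and 0 passed edgeR's test (3 at an unadjusted p under 0.05). Scg2, which encodes secretogranin II, a precursor protein of dense-core vesicles, had the smallest p after Nr4a3. It stood at 121.7, 89.0, 101.1, 112.0 and 105.5 CPM in knockout, against 124.5, 136.5, 135.5, 111.3 and 120.0 CPM in wild type. 3 knockout libraries lay below every wild-type library, and the log2 fold change was -0.25 (SE 0.072, edgeR adjusted p = 0.203). It was -0.02 with the choroid and ependyma markers as a covariate, -0.09 with the striatal markers and -0.14 without knockout replicates 3, 5 and 6 (edgeR adjusted p = 0.9996, 0.9999 and 0.774), and -0.30 without knockout replicate 1 (edgeR adjusted p = 0.0466). Of the 10 genes listed as interneuron markers 1, Slc32a1, fell and 0 rose, against 0.194% called lower over all tested genes. At an unadjusted edgeR p under 0.05, 4 had a lower level and 1, Vip, a higher one (log2 fold change 0.33). Over all tested genes 4.52% were lower and 4.19% higher at that threshold. The 10 markers summed to 696.9, 627, 663, 696.8 and 578 CPM in knockout, against 718, 715, 769.9, 707 and 691 CPM in wild type. Their part in the level of Scg2 was not tested. Nptx2, a pentraxin that gathers glutamate receptors at synapses, stood at 22.7, 22.9, 24.5, 19.6 and 18.9 CPM in knockout, against 24.9, 25.9, 26.1, 25.0 and 25.1 CPM in wild type. Its knockout libraries all lay below its wild-type libraries, the only member of the 38 with no overlap, as did 0.897% of all tested genes, and the log2 fold change was -0.23 (SE 0.087, edgeR adjusted p = 0.391). Ccn1, a matricellular protein gene, went the other way, at 4.61, 5.91, 3.61, 4.29 and 4.81 CPM in knockout, against 3.15, 3.97, 4.17, 3.19 and 2.7 CPM in wild type (log2 fold change 0.44, SE 0.194, edgeR adjusted p = 0.488). All of its knockout libraries but replicate 5 lay above its wild-type range.

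Bdnf, the neurotrophin gene with several activity-controlled promoters, stood at 19.88, 19.99, 18.36, 24.57 and 12.14 CPM in the knockout libraries, against 14.27, 18.47, 17.95, 13.94 and 14.96 CPM in wild type. 3 knockout libraries lay above all wild-type libraries and knockout replicate 8 below all, and the log2 fold change was 0.26 (SE 0.141, edgeR adjusted p = 0.655). Arc, whose protein controls the recycling of AMPA receptors, stood at 13.1, 17.3, 13.7, 19.2 and 12.7 CPM in knockout, against 16.2, 12.6, 14.1, 14.0 and 15.5 CPM in wild type (log2 fold change 0.07, SE 0.119). Ptgs2, the inducible cyclooxygenase gene, stood at 2.1, 1.99, 0.551, 2.51 and 1.4 CPM in knockout, against 0.997, 1.29, 2.32, 1.17 and 2.19 CPM in wild type (0.11, SE 0.356). Both overlapped between the genotypes. The activin subunit gene Inhba and the neuropeptide precursor gene Vgf ranged from 2.95 to 13.9 CPM and from 113 to 224 CPM among the knockout libraries, wider than in wild type, with log2 fold changes of -0.15 and 0.02. That of Inhba had no stable direction, at -0.56 without knockout replicate 8, 0.05 without knockout replicate 6, 0.61 with the choroid and ependyma covariate and 0.99 with the striatal one. The Scg2 promoter, chr1:79439977-79440276 (minus strand) in GRCm38.p6, is shown because it holds the full element TGACGTCA, which reads the same on both strands and so holds TGACG and its reverse complement overlapping, 68 bases before the start, in capitals.
Scg2: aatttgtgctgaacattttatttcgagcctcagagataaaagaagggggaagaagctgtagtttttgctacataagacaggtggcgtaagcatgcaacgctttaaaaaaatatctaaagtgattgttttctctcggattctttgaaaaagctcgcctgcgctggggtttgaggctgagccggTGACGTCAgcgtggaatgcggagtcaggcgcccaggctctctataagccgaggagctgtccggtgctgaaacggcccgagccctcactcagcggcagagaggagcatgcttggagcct
The full element occurred in 1.79% of all promoters and in 4 of the 41 member promoters. These belong to 4 of the 28 members, Scg2, Btg2, Dusp1 and Maff. The CArG box, the site of SRF, occurred in 1.63% of all promoters and in 5 of the 41 member promoters. These belong to 2 of the 28 members, Egr2 and Srf itself. Sites more than 250 bases before the start were not searched, nor were members without a promoter in the table. These counts therefore cannot show that the other members lack SRF sites.

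**Figure D2:**
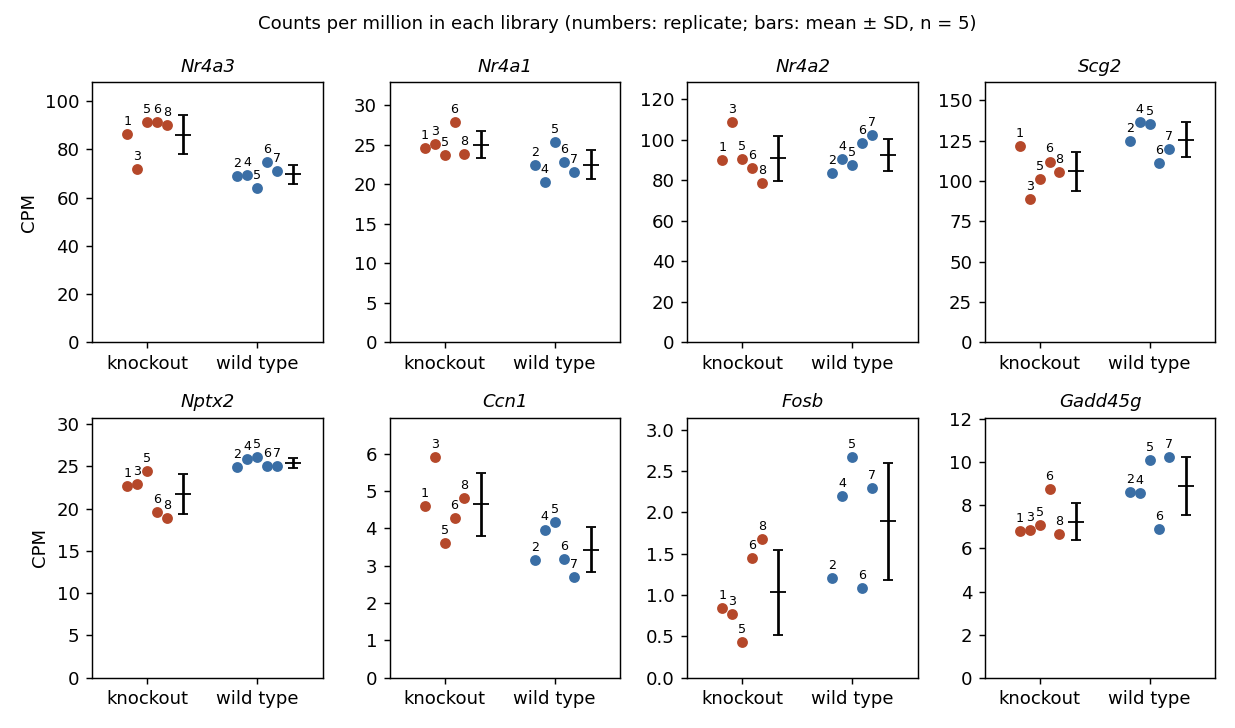
CPM in each library for the Nr4a genes and the 5 further genes with an unadjusted edgeR p under 0.05 (y axis from 0); numbers are replicates, and bars are mean ± SD with n = 5. Knockout lies above wild type for Nr4a3 except in replicate 3 (71.9 CPM), and below it without overlap for Nptx2.

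To compare levels between genes, mean CPM was divided by the merged exon length in GENCODE M21, which may differ from the annotation used for counting. On this scale of CPM per kilobase Jund was highest, at 134 ± 9.6 in knockout and 135 ± 10.2 in wild type (SD, n = 5 each). Vgf followed at 60.4 ± 14.1 in knockout and 59.4 ± 6.37 in wild type, then Scg2 at 42.1 ± 4.85 in knockout and 49.9 ± 4.24 in wild type. In knockout, Jund stood clear of Vgf, while Vgf and Scg2 lay within their spread of each other. Nr4a2 (24.2 ± 2.97 in knockout), Egr3 (21.3 ± 1.72), Jun (18.1 ± 2.88) and Srf (17.1 ± 0.416) came next, neighbours whose SDs over libraries overlapped. The order of these genes within single libraries was not compared. Nr4a3 held place 9 in the knockout, at 15.1 ± 1.44, against 12.2 ± 0.696 in wild type, and Nr4a1 was at 9.35 ± 0.636 in knockout and 8.39 ± 0.695 in wild type. The rapid genes differed widely in level. Fos stood at 2.2 ± 0.604, Npas4 at 1.16 ± 0.33 and Fosb at 0.273 ± 0.136 in knockout, against 2.43 ± 0.279, 1.26 ± 0.319 and 0.499 ± 0.186 in wild type. Egr1 (11.7 ± 0.675 in knockout and 11.9 ± 1.54 in wild type) and Junb (12.9 ± 1.85 and 11.9 ± 0.969) stood higher.

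Covariation over libraries was tested first against Fos. With Fos as a covariate beside genotype, 31 of the 37 other members had a positive slope, but 0 passed edgeR's test over all genes in either direction, where 4 had an unadjusted p under 0.05 and a positive slope (Arc, Jund, Egr2 and Bdnf). Over all genes 0.00646% passed with a positive slope (1 gene, Tshz2) and 0.0839% with a negative one, and 4.58% and 5.59% had an unadjusted p under 0.05 in these directions. Fos itself held only 59 to 117 counts a library, which limits what its slopes can show. Nr4a3 ran against Fos, with a slope of -0.29 (SE 0.111, unadjusted p = 0.0137, edgeR adjusted p = 0.335). With Nr4a3 as the covariate, 7 of the 37 others had a positive slope and 0 passed the test in either direction (0 positive and 1 negative, Fos, at an unadjusted p under 0.05). Over all genes 0% passed in either direction, and 3.23% had a positive and 2.31% a negative slope at an unadjusted p under 0.05. 13 genes outside the list fell as Fos was higher, among them Map1b, Nav1 and Grin2b, and the transcripts of these 13 were long, from 6667 to 24787 exon bases against a median of 3431 over all tested genes with a length. Transcripts from 8000 bases, relative to those under 2000, were most abundant in wild-type replicate 6 and knockout replicate 5, by 0.173 and 0.166 on the log2 scale, and least in knockout replicate 6, at -0.159, where Fos stood at 4.18, 3.61 and 5.51 CPM. Knockout replicates 1 and 8, also low in Fos at 3.83 and 3.8 CPM, stood at 0.028 and -0.048, and knockout replicate 3, highest in Fos at 6.46 CPM, at -0.082. The part of transcript length in the Fos slopes was not tested.

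Pairs of members were compared over the 10 libraries after the mean of each genotype was removed from log2 CPM. The median r over the 703 pairs was 0.134, against -0.001 over all pairs of tested genes, and 18 pairs (2.56%) were above 0.7, against 2.18% of all gene pairs. The 26 nuclear regulators had a median of 0.095 among themselves, the 8 effectors 0.193, and regulators against effectors 0.134. Nr4a3 stood at a median of -0.273 with the 37 others, and Fos at 0.321. Knockout replicate 3, where Nr4a3 lay far below the other knockout libraries, was the highest library for 7 members, among them Fos and Nr4a2. The part of that library in these medians, and in the slopes between Nr4a3 and the other members, was not tested. Without removing the genotype means, Fos and Arc had a Pearson r of 0.70 (permutation p = 0.0257) and a Spearman rho of 0.75 (permutation p = 0.0182), and r was 0.64 without knockout replicates 5 and 8. Bdnf and Vgf had an r of 0.83 (permutation p = 0.00206) and a rho of 0.73 (permutation p = 0.0195), and r was 0.60 without knockout replicates 6 and 8. Per1 and Dusp1 had the highest r, 0.88 (permutation p = 0.00102), with a rho of 0.82 (permutation p = 0.006) and 0.70 without knockout replicate 3 and wild-type replicate 6. Jun and Inhba were opposed, with an r of -0.81 (permutation p = 0.00581) and a rho of -0.89 (permutation p = 0.00111), and r was -0.70 without knockout replicate 8 and wild-type replicate 2. These pairs were picked after their values were seen, and 0 of the 703 passed the permutation test after Benjamini-Hochberg adjustment over all pairs, where the smallest adjusted p was 0.593 for r and 0.605 for rho.

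**Figure D3:**
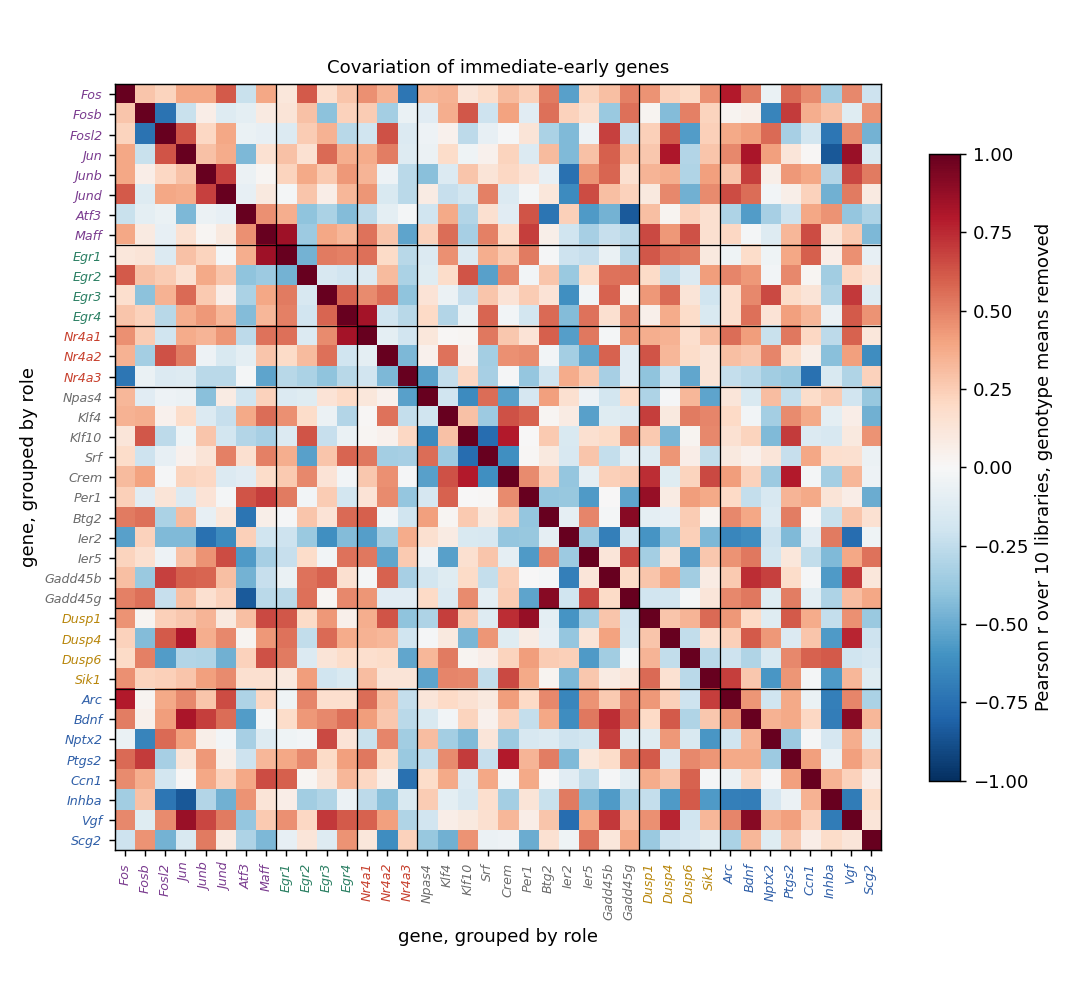
Pearson r of log2 CPM over the 10 libraries, genotype means removed, for each pair of the 38 genes, ordered by role on both axes. The row of Nr4a3 has a median of -0.273 and that of Fos 0.321, and 0 of the 703 pairs passed the permutation test after adjustment over all pairs.

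Bdnf and Inhba had a Pearson r of -0.72 over 10 libraries (permutation p = 0.0185; Spearman rho -0.59, permutation p = 0.0788) and -0.10 without knockout replicates 6 and 8, so that relation rested on these libraries. Knockout replicate 6 was the highest library for 10 of the 38 genes, among them Jun, Arc, Bdnf and Vgf, and knockout replicate 8 the lowest for 10, among them Jun, Bdnf, Vgf, Dusp4 and Gadd45b. Vgf stood at 224 CPM in knockout replicate 6 and 113 CPM in knockout replicate 8, against 156 to 201.3 CPM in wild type, and Inhba at 2.95 and 13.9 CPM in these knockout libraries, against 6.43 to 10.5 CPM in wild type. Marker levels also differed between these libraries. Astrocyte markers summed to 4231 CPM in knockout replicate 6 and 3616 CPM in replicate 8, against 3440 to 3919 CPM in wild type. Excitatory neuron markers summed to 2056 and 2073 CPM in knockout replicates 6 and 8, against 1891 to 2018 CPM in wild type, but single markers differed in opposite directions. Slc17a7 stood at 1068 CPM in knockout replicate 6 and 805 CPM in replicate 8, against 867 to 971 CPM in wild type. The layer 4 gene Rorb, picked after its values were seen, stood at 32.2 CPM in knockout replicate 6 and 90.1 CPM in replicate 8, against 53.7 to 61.6 CPM in wild type. Knockout replicate 8 also had the highest sum of erythroid markers, at 693 CPM, against 386 to 422 CPM in the other knockout libraries and 483 to 683 CPM in wild type. The part of these markers in the spread of Bdnf, Vgf and Inhba was not tested. Heat shock genes, some of which handling can induce, summed to 3021 to 3222 CPM in knockout and 2879 to 3143 CPM in wild-type libraries. Hsp90aa1 averaged 1263 CPM in knockout and 1221 CPM in wild type, and Dnajb1 42.7 and 45.5 CPM, so the sums say little about the less abundant genes. Of the 8, 0 passed edgeR's test in either direction (1 at an unadjusted p under 0.05).

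**Figure D4:**
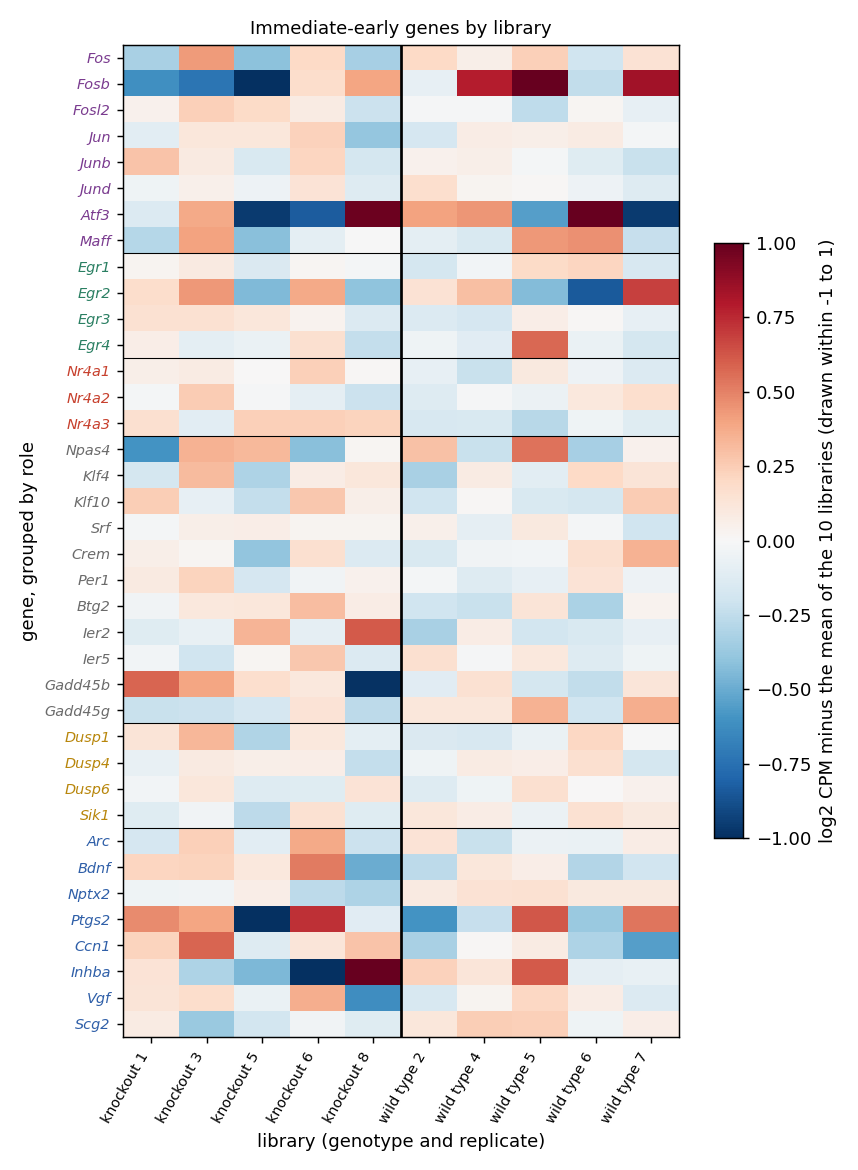
Log2 CPM of each gene minus its mean over the 10 libraries (colour, drawn within -1 to 1), knockout libraries left and wild-type libraries right, genes by role. Knockout replicates 6 and 8 hold the extremes of Bdnf, Vgf and Inhba, and wild-type replicate 5 that of Egr4 (36.8 CPM).

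The genes whose pattern over the 10 libraries was most like that of a member were listed by r with genotype means removed. Predicted genes and identifiers without a symbol were passed over in these lists, while the places given for members count all tested genes. Nearest to Fos were Kifc2 (r 0.98), Meis2 (0.95), Pcyox1 (0.94), Chrd, Suclg2 and Cdc123 (0.93), Acot1, Lrtm2 and Ephx1 (0.92) and Syt15 (0.91), and the nearest member was Arc, in place 156 of 15487 at 0.79. Nearest to Nr4a3 were Klf12 (0.95), Stk38 (0.95), Stoml3 (0.94), Lrrc36 (0.94), Tectb, Naif1 and Lct (0.93) and Wdr63, Emp1 and Prkx (0.92), and its nearest member was Ier2, in place 2727 at 0.37. Without removing the genotype means, r with Fos lay between 0.53 and 0.93 for its 10 genes, and r with Nr4a3 between 0.01 and 0.85 for its 10, with Klf12 at 0.01, Wdr63 at 0.02 and Lrrc36 at 0.18. For Klf12, Wdr63 and Lrrc36 the likeness to Nr4a3 is thus one within genotypes, while Prkx (0.85), Lct (0.69) and Stk38 (0.65) kept more of it. Within the knockout, replicate 3, at 71.9 CPM of Nr4a3, lay far from the other libraries, at 86.3 to 91.4 CPM. How far the likeness rests on that library was not tested, and all these values are a description over 10 libraries.

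The wider response and its wiring were read from 4 further lists. Of 42 tested further activity-regulated genes 1 rose and 0 fell, against 0.187% called higher over all tested genes, and the median log2 fold change was 0.03. The gene that rose was Klf9, a Krüppel-like factor known as a target of thyroid hormone, at 183, 198, 181.5, 177 and 187 CPM in knockout, against 148, 158, 168, 163.5 and 163 CPM in wild type (log2 fold change 0.21, SE 0.048, edgeR adjusted p = 0.041). Every knockout library lay above every wild-type library, as in 0.93% of all tested genes. Tac1, the substance P precursor gene and also a striatal marker here, had a log2 fold change of -0.42 (SE 0.127, edgeR adjusted p = 0.197), and Bmp2 one of -0.38. Of the 19 genes of the ERK and SRF pathway (2 at an unadjusted p under 0.05) and the 23 of the CREB, CRTC and MEF2 pathway (also 2), 0 passed edgeR's test in either direction. Among the genes of smallest p were Elk3 (log2 fold change -0.25) and Map2k1 (-0.08) in the first list, and Npas2 (0.22), Ppp3r1 (0.10) and Creb1 (0.12) in the second. Of 27 receptors and partners of the effectors 0 passed (4 at an unadjusted p under 0.05). The prohormone convertase gene Pcsk2, whose enzyme cleaves secretogranin and Vgf precursors, came nearest with 237, 229, 228, 204 and 227 CPM in knockout, against 188, 196, 195, 209 and 192 CPM in wild type (0.20, SE 0.048, edgeR adjusted p = 0.0615), while Rxrg had -0.48 and Scg3 0.11. Rxrg encodes a retinoid X receptor, a type of dimer partner of Nr4a1 and Nr4a2.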

How the data were processed

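The authors deposited raw counts, 1 column for each of 10 libraries, with genes as Entrez identifiers. HISAT2, featureCounts and the build mm39 are named, with no versions, in the submitters' processing notes. Annotation and strand setting were not stated there, so reads of a member and of an antisense transcript cannot be told apart. Symbols, from a RefSeq table of GRCm38.p6, matched 30648 of 30935 identifiers. Replicates of a genotype differed by more than sampling noise (chi-square per degree of freedom 4.1 to 13.9), and the design text calls them independent.

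The test was edgeR 4.0.16 (R 4.3.3) on these counts, with filterByExpr, TMM factors and robust quasi-likelihood, genotype alone in the model, Benjamini-Hochberg over 15488 genes, threshold 0.05. Log2 CPM used a prior count of 2. Slopes on Fos or Nr4a3 came from the same fit with its log2 CPM beside genotype. Pairs used 100000 permutations. Scripts were tested on simulated counts. Promoters are RefSeq's. The members and lists were chosen with earlier results of these data known, and no p is adjusted over them alone. Values per library are given for Fos, Junb, Egr1, Egr3, the Nr4a genes, Npas4, Arc, Bdnf, Ptgs2, Scg2 and members with an unadjusted p under 0.05; pathway genes are those past the test and the 3 of smallest p per list, of which 1 is not reported here. The alternatives were other normalizations and filters, DESeq2 1.42.0, limma-voom (limma 3.58.1), 1 surrogate variable (sva 3.50.0), covariates, a replicate block and left-out libraries.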

Additional observations from a re-analysis of the deposited data

Results flagged for a closer look

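In 3 of 76 groups of 5 libraries, 1 library lay far from the other 4, where chance gives about 1 in 20. Nr4a3 was lowest in knockout replicate 3, at 71.9 CPM, against 86.3 to 91.4 CPM in the other knockout libraries. Gadd45g was highest in knockout replicate 6, at 8.75 CPM, against 6.66 to 7.1 CPM in the other knockout libraries. Egr4 was highest in wild-type replicate 5, at 36.8 CPM, against 21.9 to 24.0 CPM in the other wild-type libraries, and that library also had the highest sum of striatal markers, at 631 CPM.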

How the results depend on the processing

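Against 59 genes called in all, the count was 171 with no filter, 124 with DESeq2, 108 at an adjusted p under 0.1, 28 with a sex covariate from the counts, 29 with 1 surrogate variable, 1 with the striatal covariate, 0 with the choroid covariate by edgeR (759 at an unadjusted p under 0.05), 12 without knockout replicates 3, 5 and 6 together, and 15 to 182 with 1 library left out (17 without knockout replicate 3, 37 without 6, 182 without 8, and 15, 21 and 17 without wild-type replicate 2, 4 or 5). Members called higher were 0 in place of 1, with Nr4a3 keeping its direction, with limma-voom (log2 fold change 0.30), 1 surrogate variable (0.33), the choroid covariate (0.42), the striatal covariate (0.29) and without knockout replicates 3, 5 and 6 (0.34), and 0 to 1 with 1 library left out (0.28 to 0.36). 1 member in place of 0 was called lower with no filter and without knockout replicate 1, Scg2 in both, a range of 0 to 1. The replicate block gave 27 genes, 0 members higher and 1 lower (Inhba), with Nr4a3 at 0.40 (edgeR adjusted p = 0.450); the genotypes share only numbers 5 and 6, whose deviations correlated at -0.0303 and -0.0566, so the numbers are not taken as pairs. With 1 library left out, the log2 ratio of Nr4a3 to Nr4a1 differed by 0.07 to 0.21 and that to Nr4a2 by 0.26 to 0.46. Without knockout replicates 3, 5 and 6 the ratio to Nr4a2 differed by 0.47 (exact permutation p = 0.0476, the smallest possible). Genes rising with Fos, 1 in all, were 0 with no genotype term, 2 with limma-voom, 3 with the choroid covariate and 0 to 7 with 1 library left out. Genes rising with Nr4a3, 0 in all, were 2 with the striatal covariate and 0 to 7 with 1 library left out. Members following Fos or Nr4a3 stayed at 0 in each of these fits. The causes of these differences were not tested, and the fits with libraries left out also hold fewer libraries. At 5 libraries a genotype and under about 3 CPM, folds of Fosb, Atf3 and Ptgs2 have wide intervals.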
